A study of Mus musculus with 6 samples.

Results

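The genes described here make MHC class I molecules and load them with peptide. They are the heavy chains H2-K1, H2-D1, H2-Q4, H2-Q6, H2-Q7 and H2-T23, the light chain B2m, the transporter subunit Tap1, the immunoproteasome subunit Psmb8 and the regulator Nlrc5. The 10 genes were chosen by name, and each was found on 1 row of tables that list 30733 gene symbols. The libraries were made from bone marrow cells that the labels call haematopoietic stem cells (HSCs), the source of all blood lineages, from mice of genotype WT that had all received 5 Gy of total body irradiation. The MHCII-hi group had 3 libraries and the MHCII-lo group had 3, where MHCII is MHC class II, the surface molecule by which the cells were divided. No unirradiated group was compared. Mouse strain, age, sort gates, time after irradiation and any pooling of animals were not stated in the labels. The labels do not tell whether separate mice gave the replicates, so p-values here speak only of the spread among libraries, and that spread may be technical.

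Class I molecules sit on nearly all nucleated cells and show CD8 T cells and NK cells a sample of the peptides made inside the cell. The proteasome cuts proteins into peptides, the TAP transporter carries these into the endoplasmic reticulum, and chaperones hold a heavy chain paired with beta-2-microglobulin until a peptide fits. Interferons and NF-kB raise the transcription of these genes, and NLRC5, working with the RFX proteins at a shared promoter module, is their dedicated transactivator.

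Levels are in FPKM, fragments for each kilobase of transcript scaled to sequencing depth, which allow genes to be compared per length but are relative to the total of each library. A change is the difference of mean log2(FPKM + 1), MHCII-hi minus MHCII-lo, tested with limma and called at a Benjamini-Hochberg adjusted p of 0.05 over 12110 genes. The smallest steps of the values gave an estimated depth of 2.04e+07 to 3.24e+07 fragments per library, and so put between 340 and 35000 estimated fragments behind each value of the 10 genes. The mean log2(FPKM + 1) of the class II genes Cd74, H2-Eb1, H2-Aa and H2-Ab1 was 6.75 ± 0.02 in the MHCII-hi libraries and 2.34 ± 0.05 in the MHCII-lo libraries (SD, n = 3 each), with a two-sided exact permutation p of 0.1, which is as low as 3 against 3 can go. Of 12 HSC markers, 6 passed the minimum of 1 FPKM, Ly6a, Kit, Cd34 and Flt3 among them. Flt3 is not particular to HSCs and is counted again among the dendritic cell markers below. The list summed to 84.5 to 90.1 FPKM in MHCII-hi and 34.5 to 35.5 FPKM in MHCII-lo, with Ly6a 14.2-fold higher. Of the 12, 8 lay above without overlap, Flt3 among them, beside 29% of all tested genes. Of those 8, Slamf1, Mecom and Fgd5 did not meet the minimum and so were not tested. Against the label, Procr, Slamf1, Mecom, Fgd5, Hoxb5 and Ctnnal1 averaged under 1 FPKM in both groups.

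Markers of mature cell types differed between the groups beside every result below. The 10 plasma cell markers summed to 19460 to 19993 FPKM in MHCII-hi and 377 to 398 FPKM in MHCII-lo. Most of that sum was Igkc, which averaged 18162 FPKM in MHCII-hi and 309 FPKM in MHCII-lo. All 10 were called higher, beside 25.5% of all tested genes. Of them, Mzb1, Prdm1, Irf4, Sdc1, Tnfrsf17, Derl3 and Pou2af1 averaged under 1 FPKM in MHCII-lo and met the minimum only through MHCII-hi. The 10 B cell markers summed to 53.0 to 56.2 FPKM in MHCII-hi and 7.30 to 8.41 FPKM in MHCII-lo. All 10 of them lay above MHCII-lo without overlap, as did 29% of all tested genes, though only 4 of the 10 met the minimum of 1 FPKM. Cr2 was listed at 0 in every MHCII-lo library but was also low in MHCII-hi, at 0.03 to 0.11 FPKM. The dendritic cell markers, again 10 of 10 above, summed to 52.9 to 55.5 FPKM in MHCII-hi and 11.4 to 11.7 FPKM in MHCII-lo. T and NK cell markers (9 of 10 above) summed to 206 to 215 FPKM in MHCII-hi and 164 to 173 FPKM in MHCII-lo. Most of that sum was Nkg7, which ranged over 144.34 to 150.92 FPKM in MHCII-hi and 146.43 to 154.29 FPKM in MHCII-lo and so overlapped, while Il2rb averaged 15.9 FPKM in MHCII-hi and 3.04 FPKM in MHCII-lo, and Trac 10.6 FPKM in MHCII-hi and 2.74 FPKM in MHCII-lo. Eosinophil and basophil markers (9 of 10 above) summed to 6235 to 6369 FPKM in MHCII-hi and 2545 to 2575 FPKM in MHCII-lo. Neutrophil markers went the other way, with 10 of 10 below (36.8% of all tested genes lay below without overlap), at 14278 to 14737 FPKM in MHCII-hi and 35774 to 36414 FPKM in MHCII-lo. Erythroid markers (8 of 10 below) summed to 224 to 231 FPKM in MHCII-hi and 402 to 413 FPKM in MHCII-lo. Monocyte and macrophage markers (5 above, 4 below) summed to 2224 to 2298 FPKM in MHCII-hi and 3244 to 3265 FPKM in MHCII-lo. Lyz2 made up most of that sum, averaging 1762.5 FPKM in MHCII-hi and 2652 FPKM in MHCII-lo. Cd14, Ly6c2 and Ccr2 were below with it, while Csf1r, Adgre1, Vcam1, C1qa and C1qb were above. The part of these cell types in the class I results was not tested. In bulk RNA a different number of cells of a type and a different amount of RNA per cell cannot be told apart.

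The promoters of the heavy chains and of B2m are shown first, because the heavy chains that moved most and least carry nearly the same stretch of letters. All sequences are from the RefSeq promoter table of GRCm38.p6, are written along the strand of the gene, and carry in capitals the matches of the motifs GGGANTNCC (NF-kB type), GAANNGAAA (a short interferon regulatory factor core), GAAANNGAA (interferon-stimulated response element type), TGACG (part of a cyclic AMP response element) and CCAAT (the letters of a Y box). On the opposite strand the short core reads TTTCNNTTC and CCAAT reads ATTGG. The first 4 full stretches below lie upstream of H2-K1 (chr17:34000353-34000463, minus strand), H2-Q4 (chr17:35379438-35379572, plus strand), H2-Q6 (chr17:35424672-35424805, plus strand) and H2-Q7 (chr17:35439017-35439149, plus strand). The B2m stretch is chr2:122147542-122147644 on the plus strand. For H2-D1 only chr17:35262924-35262952 (plus strand), which holds the first 2 motifs, is given, because the RefSeq start used for it lies 364 bases inside the annotated gene.
H2-K1: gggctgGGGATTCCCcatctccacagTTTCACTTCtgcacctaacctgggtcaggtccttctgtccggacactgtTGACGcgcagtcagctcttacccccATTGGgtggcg
H2-Q4: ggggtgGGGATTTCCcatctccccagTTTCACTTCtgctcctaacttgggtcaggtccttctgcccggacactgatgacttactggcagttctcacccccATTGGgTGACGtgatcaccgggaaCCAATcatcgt
H2-Q6: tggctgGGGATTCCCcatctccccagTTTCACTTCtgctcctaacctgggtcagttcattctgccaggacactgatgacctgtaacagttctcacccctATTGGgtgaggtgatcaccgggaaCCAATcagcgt
H2-Q7: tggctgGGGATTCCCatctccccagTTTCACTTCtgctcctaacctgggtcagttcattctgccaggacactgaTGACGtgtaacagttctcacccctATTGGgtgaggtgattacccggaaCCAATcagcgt
H2-D1: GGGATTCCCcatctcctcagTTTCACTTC
B2m: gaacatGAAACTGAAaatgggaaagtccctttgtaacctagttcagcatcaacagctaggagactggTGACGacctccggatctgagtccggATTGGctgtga

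The table held a window for 9 of the 10 genes; Nlrc5 was the one without. In the 250 bases before the start, searched on both strands, GGGANTNCC was found in 5 of the 9 windows (H2-K1, H2-D1, H2-Q4, H2-Q6 and H2-Q7) and in 3.36% of 32851 windows of the same length. GAANNGAAA lay in the same 5 windows and in 6.31% of all windows. GAAANNGAA, which was not found in those 5, was found in B2m and H2-T23 and in 7.13% of all windows. The letters of these 3 motifs were set after the sequences had been seen. GGGANTNCC does not match longer NF-kB type sequences. The B2m stretch holds one on the opposite strand, at the letters ggaaagtccc, which was not counted. CCAAT was found in 8 of 9 windows, all but Psmb8, against 33.8% of all, and TGACG in 6, absent as letters from H2-Q6, H2-T23 and Psmb8, against 17.8% of all. TGACG lay before ATTGG in H2-K1, H2-D1, H2-Q7 and B2m and after it in H2-Q4, so its place was not shared. The start used lay 474 bases inside the annotated gene for Psmb8 and 154 bases inside it for H2-T23, so their windows are not those before the annotated starts. TTCNNNGAA (the gamma-activated site type) was found in Psmb8 only, against 7.02% of all windows. The 5 heavy chains that share the first pair of motifs include the smallest of the heavy chain changes given below (H2-D1) and the 3 largest. A match describes letters in a window and shows no binding.

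**Figure D1:**
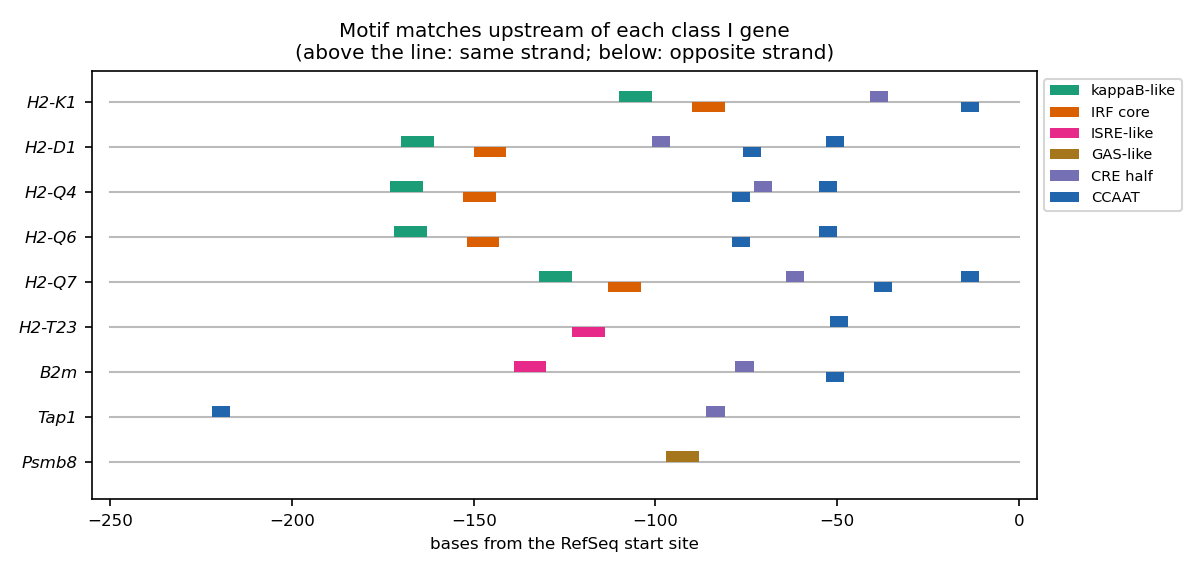
Motif matches in the 250 bases before the RefSeq start of 9 class I genes, plotted as distance from the start (bases). Boxes above a line are on the strand of the gene and boxes below it on the opposite strand; the 5 heavy chains at the top share the NF-kB type (kappaB-like) and interferon regulatory factor core matches in the same order.

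Across the 10 genes, 9 were called higher in MHCII-hi, 0 were called lower, and Psmb8 was not called. Over all tested genes 25.5% were called higher and 33.1% lower. The 3 MHCII-hi libraries lay above the 3 MHCII-lo libraries for the same 9 genes, against 29% of all tested genes. The median change of the 10 genes was 0.47, beside -0.04 over all tested genes, and 3 of them reached a log2 change of at least 1, against 4.1% of all genes. All 10 exceeded the minimum of 1 FPKM in both groups, so none entered the test through 1 group alone. The direction of the small changes depended on the scale. When each library was scaled to its FPKM outside the immunoglobulin genes, the median over all tested genes moved by 0.15. Those genes took 23.5% ± 0.144 of summed FPKM in the MHCII-hi libraries and 0.497% ± 0.00446 in the MHCII-lo libraries (SD, n = 3 each). With that scaling 9 of the 10 genes were called higher, beside 40.6% of all genes higher and 17.5% lower. Quantile normalization left 7 higher and turned B2m and H2-D1 to lower, beside 20.9% of all genes higher and 39.4% lower. Upper-quartile scaling gave 9 higher, beside 26.5% of all genes higher and 32% lower.

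**Figure D2:**
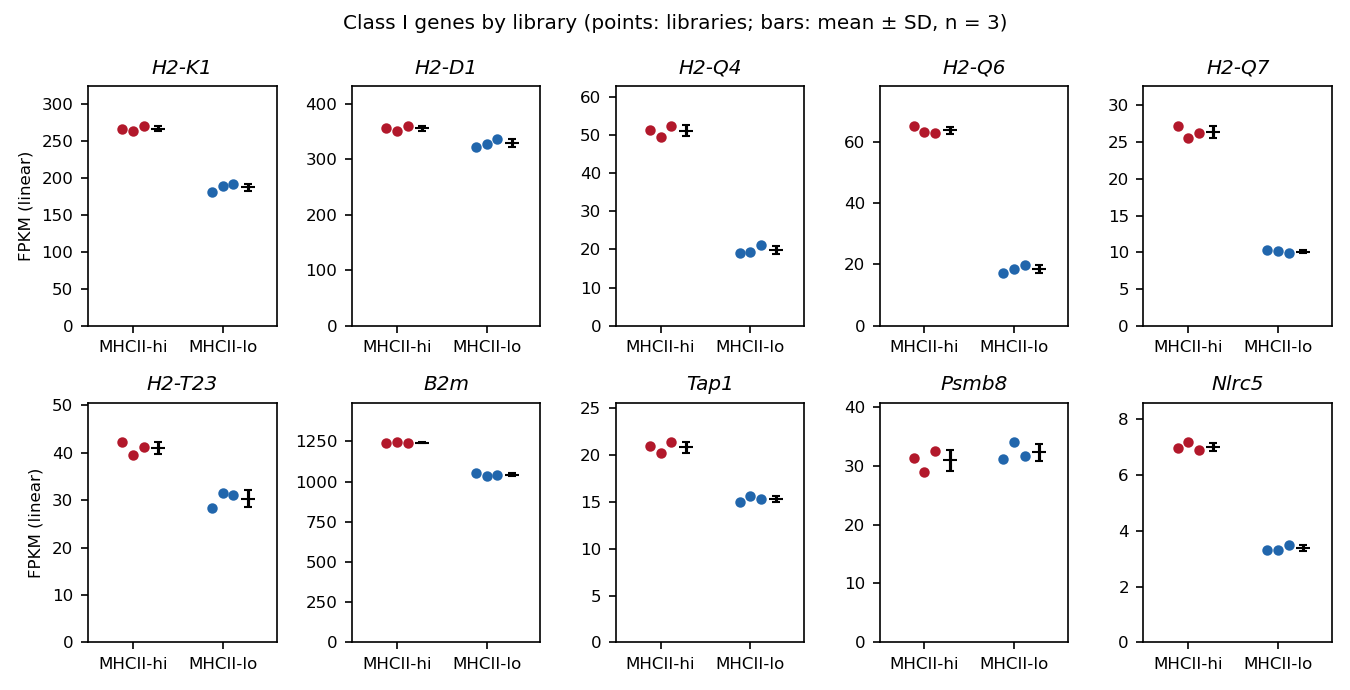
FPKM of each of the 10 class I genes in every library on a linear axis that starts at 0, with MHCII-hi (red) left of MHCII-lo (blue) and bars giving mean ± SD (n = 3). The groups are apart for 9 genes and overlap for Psmb8.

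The classical heavy chains H2-K1 and H2-D1, which present peptides to CD8 T cells, were by far the most abundant heavy chains in both groups. H2-K1 (chromosome 17, 33996017 to 34000347, minus strand) had 267.16, 263.84 and 270.74 FPKM in the MHCII-hi libraries, against 181.92, 189.09 and 191.76 FPKM in the MHCII-lo libraries. The groups were far apart relative to their spread. The log2 change was 0.51 (limma adjusted p = 5.95e-06, SE 0.02), and it was 0.13 with quantile normalization. H2-D1 (chromosome 17, 35262730 to 35267499) had 356.54, 350.90 and 359.84 FPKM in MHCII-hi, against 322.25, 327.59 and 336.35 FPKM in MHCII-lo. Every MHCII-hi library was higher, but the gap between the groups was only a little wider than the range within MHCII-lo. The log2 change of 0.11 (limma adjusted p = 0.0036, SE 0.02) turned to -0.36 (limma adjusted p = 1.13e-05) with quantile normalization, so the direction of H2-D1 between the groups is not settled by these values.

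H2-K1 and H2-D1 can also be set against each other within a library, which no scaling factor touches. The ratio of H2-K1 to H2-D1 FPKM was 0.749, 0.752 and 0.752 in the MHCII-hi libraries, against 0.565, 0.577 and 0.570 in the MHCII-lo libraries. It was higher in every MHCII-hi library. Of the 50-base windows of H2-K1 8.79% occurred in another gene, most often H2-D1, so some reads can be split between them. Of those of H2-D1 14.3% occurred in another gene, most often H2-Q1. With windows of 100 bases the shares were 0% for H2-K1 and 4.64% for H2-D1. With values as deposited, H2-K1 and H2-D1 differed unequally between the groups.

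Among the 10 genes, the nonclassical Qa region chains gave the widest differences. H2-Q6 and H2-Q7 encode Qa-2 antigens, which can be tethered to the membrane by a lipid anchor, and H2-Q4 encodes a related Qa chain. H2-Q6 (chromosome 17, 35424850 to 35430055) had 65.06, 63.17 and 62.74 FPKM in MHCII-hi, against 17.27, 18.68 and 19.69 FPKM in MHCII-lo. This was a 3.43-fold higher mean and a log2 change of 1.73 (limma adjusted p = 3.69e-07, SE 0.05), exceeded by 2.29% of all tested genes. H2-Q4 (chromosome 17, 35379617 to 35385290) had 51.39, 49.43 and 52.31 FPKM in MHCII-hi, against 19.15, 19.34 and 21.11 FPKM in MHCII-lo. Its mean was 2.57-fold higher, a log2 change of 1.32 (limma adjusted p = 9.47e-07, SE 0.04). H2-Q7 (chromosome 17, 35439155 to 35443773) had 27.19, 25.58 and 26.27 FPKM in MHCII-hi, against 10.27, 10.13 and 9.89 FPKM in MHCII-lo, which is 2.61-fold and a log2 change of 1.30 (limma adjusted p = 3.17e-07, SE 0.04). In each of the 3 genes the lowest MHCII-hi library exceeded the highest MHCII-lo library by more than the whole range of either group. Under quantile, upper-quartile and immunoglobulin-free scaling the changes of these 3 genes stayed above 1.

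How far the 3 Qa genes can be told apart is limited by their sequence. Of all 50-base windows in the H2-Q7 transcript 40.2% occurred in a transcript of another gene, most often H2-Q5, and 32.0% of H2-Q6 windows and 24.3% of H2-Q4 windows did. With windows of 100 bases the shares were 21.9% for H2-Q7, 10.8% for H2-Q6 and 2.66% for H2-Q4. The level of a single Qa gene is therefore uncertain. H2-Q4 also shares 496 exonic bases with Gm11131 on the opposite strand, and whether counting used strand is not given in the sources used here.

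H2-T23 encodes Qa-1, which shows leader peptides of other class I chains to the CD94/NKG2 receptors of NK cells. H2-T23 (chromosome 17, 36029773 to 36032855, minus strand) had 42.16, 39.50 and 41.31 FPKM in MHCII-hi, against 28.29, 31.59 and 31.07 FPKM in MHCII-lo. The groups did not overlap, and the log2 change was 0.42 (limma adjusted p = 0.000342, SE 0.05). Windows shared with other genes made up 28.8% of its 50-base windows and 7.28% of its 100-base windows, so its level too is uncertain.

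The make-up of the heavy chain pool differed between the groups as well as its size. The 6 heavy chains summed to 805 ± 11.1 FPKM in MHCII-hi and 595 ± 15.4 FPKM in MHCII-lo (SD, n = 3 each). H2-D1 took 44.2% ± 0.129 of that sum in MHCII-hi, against 55.2% ± 0.366 in MHCII-lo, and H2-K1 took 33.2% ± 0.168 in MHCII-hi, against 31.5% ± 0.161 in MHCII-lo. H2-Q4, H2-Q6 and H2-Q7 together took 17.5% ± 0.197 in MHCII-hi, against 8.15% ± 0.141 in MHCII-lo (SD, n = 3 each). This combined share is less exposed to the splitting of reads among the 3 genes than the share of any one of them. H2-T23 held 5.21%, 4.98% and 5.08% in the MHCII-hi libraries, against 4.88%, 5.30% and 5.09% in the MHCII-lo libraries, and its shares overlapped. These shares are given as a description, without a test.

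**Figure D3:**
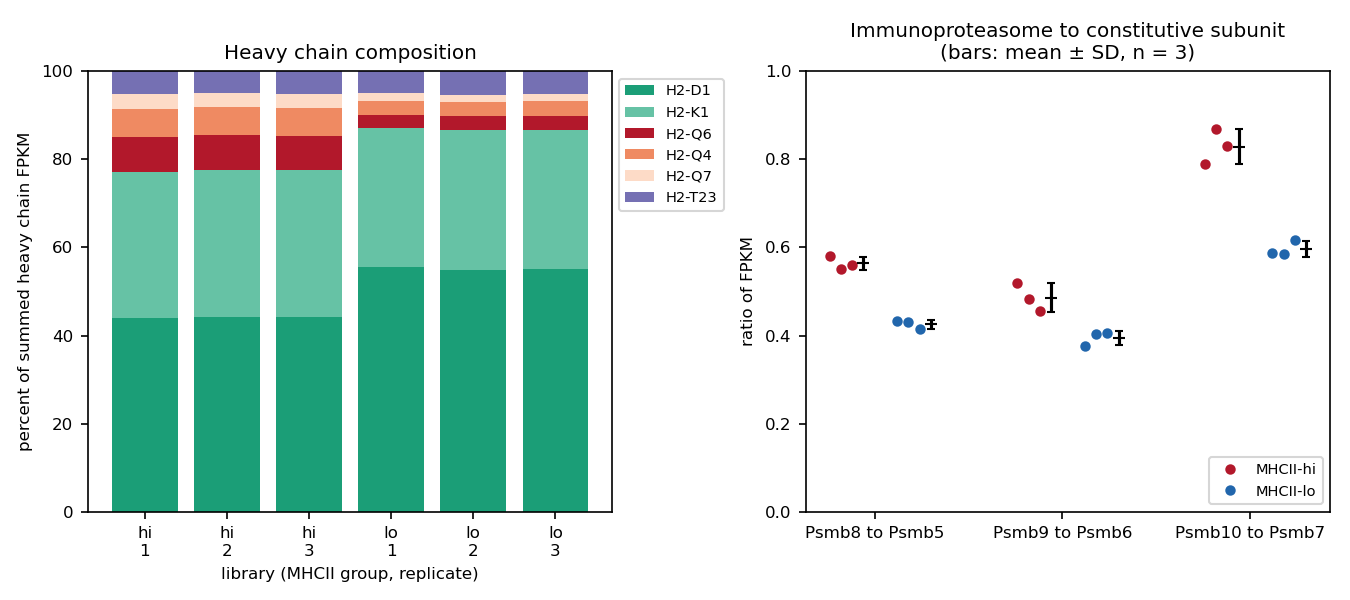
Left, the share of each heavy chain in the summed FPKM of 6 heavy chains (percent) for every library, MHCII-hi libraries first; right, the ratio of FPKM of each immunoproteasome subunit to the constitutive subunit it replaces, by library with mean ± SD (n = 3). The H2-Q shares are wider and the H2-D1 share narrower in MHCII-hi, and all 3 ratios lie higher in MHCII-hi.

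Other class I heavy chain genes came from a list of 20. The tables held 13 of them, of which 8 were tested: 5 were higher, H2-Q10 was lower and 2 were not called. Over all tested genes 25.5% were higher and 33.1% lower. The median change of the 8 genes was 0.35. H2-Q5 averaged 15.3 ± 0.955 FPKM in MHCII-hi and 5.00 ± 0.214 FPKM in MHCII-lo (log2 change 1.44, limma adjusted p = 1.83e-06), and it is the gene that shares most 50-base windows with H2-Q7. H2-K2, annotated as a transcribed pseudogene, averaged 6.30 ± 0.611 FPKM in MHCII-hi and 1.64 ± 0.336 FPKM in MHCII-lo. H2-M3, which presents formylated bacterial peptides, averaged 10.3 ± 1.43 FPKM in MHCII-hi and 7.23 ± 0.313 FPKM in MHCII-lo. H2-T10 and H2-T22, which bind some gamma delta T cell receptors, were higher by 0.57 and 0.26 on the log2 scale. H2-T10 and H2-Q5 are annotated as polymorphic pseudogenes. H2-Q10, known as a secreted chain made mainly in liver, averaged 2.33 ± 0.180 FPKM in MHCII-hi and 3.55 ± 0.272 FPKM in MHCII-lo. H2-Q1 and H2-T24 had changes of 0.15 and 0.09, with overlapping groups; H2-T24 was called higher, at 0.25, with immunoglobulin-free scaling. Of the class I-like molecules, 3 of 6 were tested. Fcgrt, the neonatal Fc receptor, averaged 7.83 ± 0.892 FPKM in MHCII-hi and 2.82 ± 0.416 FPKM in MHCII-lo, and Cd1d1, which presents lipids to NKT cells, was higher by 0.45. Hfe, which takes part in iron sensing, was lower (log2 change -0.29) but was not called with immunoglobulin-free scaling.

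B2m encodes beta-2-microglobulin, the light chain that every one of these heavy chains needs to fold and reach the surface. It was the most abundant of the 10 genes, the 36th highest of the tested genes in MHCII-hi and the 28th highest in MHCII-lo. B2m (chromosome 2, 122147686 to 122153083) had 1238.37, 1243.10 and 1240.66 FPKM in MHCII-hi, against 1051.51, 1036.68 and 1040.82 FPKM in MHCII-lo. The libraries of each group lay very close together. The log2 change of 0.25 (limma adjusted p = 6.46e-06, SE 0.01) turned to -0.33 (limma adjusted p = 1.97e-05) with quantile normalization, so B2m, like H2-D1, has no direction that holds under every scaling. Within a library, the ratio of summed heavy chains to B2m was 0.654, 0.637 and 0.655 in MHCII-hi, against 0.551, 0.575 and 0.586 in MHCII-lo, higher in every MHCII-hi library. For H2-D1 alone the ratio to B2m ran the other way, at 0.287 ± 0.00401 in MHCII-hi, against 0.315 ± 0.00838 in MHCII-lo (SD, n = 3 each).

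**Figure D4:**
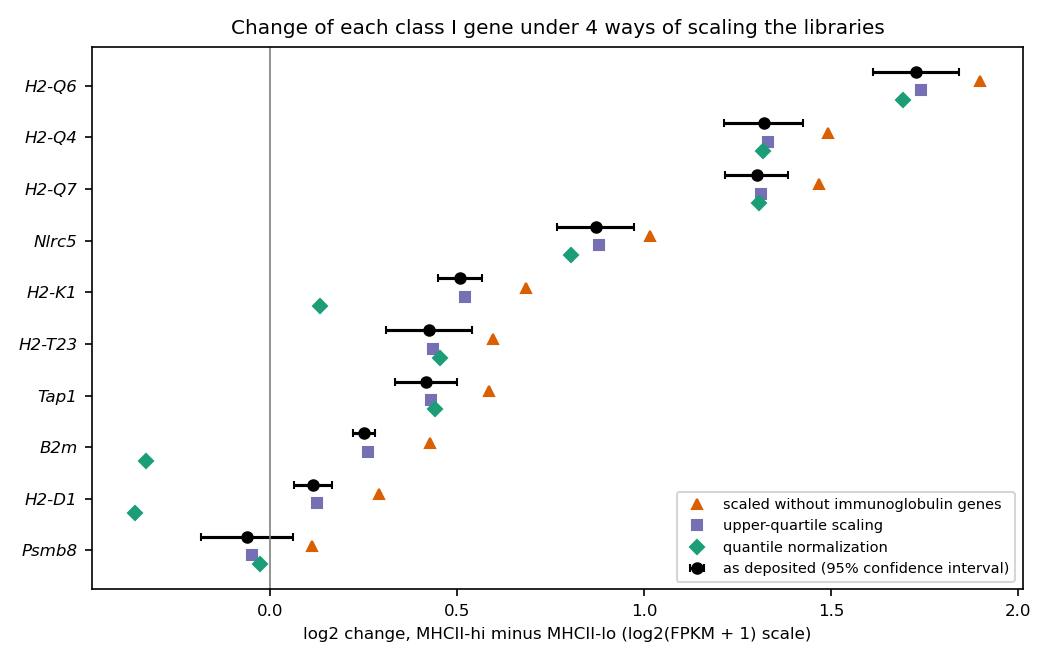
Log2 change (MHCII-hi minus MHCII-lo, log2(FPKM + 1) scale) of each class I gene with values as deposited (black, with 95% confidence interval) and under 3 other scalings. The H2-Q genes and Nlrc5 lie well above 0 under each scaling shown, while B2m and H2-D1 fall below 0 with quantile normalization and Psmb8 is not called under any of the 4.

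Tap1 encodes 1 subunit of the peptide transporter. Tap1 (chromosome 17, 34187553 to 34197225) had 20.98, 20.18 and 21.35 FPKM in MHCII-hi, against 15.02, 15.68 and 15.35 FPKM in MHCII-lo. The groups did not overlap, and the log2 change was 0.42 (limma adjusted p = 7.62e-05, SE 0.03). It shares 212 exonic bases with the neighbouring Psmb9 on the opposite strand. Tap2, the partner subunit, averaged 29.7 ± 0.840 FPKM in MHCII-hi and 25.4 ± 1.22 FPKM in MHCII-lo, a log2 change of 0.22 (limma adjusted p = 0.00413). The ratio of Tap1 to Tap2 was 0.702 ± 0.0140 in MHCII-hi, against 0.606 ± 0.0252 in MHCII-lo (SD, n = 3 each).

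The other peptide loading genes differed in both directions. Of 8 genes, 3 were higher and 5 lower, beside 25.5% higher and 33.1% lower over all genes; with immunoglobulin-free scaling 3 were higher, 3 lower and 2 not called. Tapbp, or tapasin, which bridges TAP and the heavy chain, averaged 29.4 ± 1.09 FPKM in MHCII-hi and 23.3 ± 0.313 FPKM in MHCII-lo (log2 change 0.33, limma adjusted p = 0.00024), and the related peptide editor Tapbpl was higher by 0.31, a call lost with quantile normalization. The chaperone calreticulin (Calr) averaged 422 ± 10.3 FPKM in MHCII-hi and 550.1 ± 6.03 FPKM in MHCII-lo. Calnexin (Canx) averaged 88.0 ± 1.18 FPKM in MHCII-hi and 124 ± 2.20 FPKM in MHCII-lo, and the thiol oxidoreductase Pdia3 averaged 226 ± 2.21 FPKM in MHCII-hi and 318 ± 3.48 FPKM in MHCII-lo. Their log2 changes were -0.38, -0.49 and -0.49, and all 3 were also lower under the other 3 scalings. Hspa5, or BiP, and the peptide trimming protease Erap1 had changes of -0.17 and -0.23, and neither was called with immunoglobulin-free scaling. These chaperones serve secreted proteins in general. The plasma cell markers went the other way, higher in MHCII-hi, as given above. The part of plasma cells in the chaperone levels was not tested.

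Psmb8 encodes LMP7, the immunoproteasome subunit that takes the place of Psmb5 and favours cuts that suit class I. It was the one gene of the 10 that was not called. Psmb8 (chromosome 17, 34197721 to 34201454) had 31.22, 28.97 and 32.46 FPKM in MHCII-hi, against 31.12, 33.93 and 31.71 FPKM in MHCII-lo. The groups overlapped, and the log2 change was -0.06 with a 95% interval of -0.18 to 0.06 (limma adjusted p = 0.341). With immunoglobulin-free scaling it was 0.11, also not called. Psmb8 shares 498 exonic bases with Gm20496 on the opposite strand.

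The list of constitutive proteasome core genes, which holds Psmb5, was lower. Of its 14 genes only Psmb5, Psmb6 and Psmb7 are replaced by immunoproteasome subunits, and the others belong to both forms of the core. All 14 were called lower in MHCII-hi, with a median change of -0.46, beside 33.1% of all tested genes lower. Under immunoglobulin-free scaling 12 of the 14 were still called lower, with 2 not called, beside 17.5% of all genes lower. Psmb5 averaged 54.8 ± 2.87 FPKM in MHCII-hi and 75.8 ± 3.60 FPKM in MHCII-lo, and Psmb7 averaged 27.8 ± 0.787 FPKM in MHCII-hi and 41.8 ± 1.05 FPKM in MHCII-lo. Psmb6 averaged 29.4 ± 1.07 FPKM in MHCII-hi and 33.1 ± 0.350 FPKM in MHCII-lo, and it was one of the 2, with Psmb2, whose call was lost. The alpha ring subunits Psma4, Psma1 and Psma3 had log2 changes of -0.63, -0.62 and -0.71.

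Set against its constitutive partner within a library, Psmb8 stood higher in MHCII-hi. The ratio of Psmb8 to Psmb5 FPKM was 0.581, 0.551 and 0.559 in the MHCII-hi libraries, against 0.433, 0.430 and 0.414 in the MHCII-lo libraries. The ratios did not overlap, and their log2 difference was 0.40 (exact permutation p = 0.1, two-sided, the smallest possible for 3 against 3). Leaving out each library in turn gave 0.38 to 0.41. The other immunoproteasome pairs were set side by side in the same way, without a test. The ratio of Psmb9 to Psmb6 was 0.486 ± 0.0324 in MHCII-hi, against 0.394 ± 0.0167 in MHCII-lo, and that of Psmb10 to Psmb7 was 0.829 ± 0.0399 in MHCII-hi, against 0.596 ± 0.0182 in MHCII-lo (SD, n = 3 each). In all 3 pairs every MHCII-hi library exceeded every MHCII-lo library. A ratio shows unequal change of its 2 genes and not which of them changed.

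By their own levels the immunoproteasome and activator genes were not higher. Of 6 genes, 0 were called higher by limma (1, Psmb9, at an unadjusted p under 0.05), 4 were lower and 2 were not called. Over all tested genes 25.5% were higher and 33.1% lower. Immunoglobulin-free scaling gave 2 higher and 2 lower, beside 40.6% of all genes higher and 17.5% lower. Upper-quartile scaling gave 1 higher and 3 lower, beside 26.5% of all genes higher and 32% lower. Psmb9, the LMP2 subunit, averaged 14.3 ± 0.787 FPKM in MHCII-hi and 13.1 ± 0.488 FPKM in MHCII-lo (log2 change 0.12, unadjusted p = 0.0458 and limma adjusted p = 0.0731), and was called higher at 0.29 with immunoglobulin-free scaling. Psmb10, the MECL-1 subunit, had 22.34, 23.33 and 23.33 FPKM in MHCII-hi, against 25.18, 23.81 and 25.77 FPKM in MHCII-lo. Its log2 change of -0.11 (limma adjusted p = 0.0443) was 0.06 with immunoglobulin-free scaling and was called with none of the other 3 scalings. The activator subunits Psme1 and Psme2, which open the core, had changes of 0.06 and -0.28; with immunoglobulin-free scaling Psme1 was called higher (0.23) and Psme2 was not called (-0.11). Psme3, the nuclear activator, and the assembly factor Pomp were lower, with log2 changes of -0.43 and -0.46.

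Nlrc5 encodes the class I transactivator. Its level was the lowest of the 10 genes, and its change was the fourth largest. Nlrc5 (chromosome 8, 94434356 to 94527272) had 6.96, 7.17 and 6.90 FPKM in MHCII-hi, against 3.31, 3.33 and 3.51 FPKM in MHCII-lo. The groups were well apart, with a 2.07-fold higher mean and a log2 change of 0.87 (limma adjusted p = 6.71e-06, SE 0.04). The change was between 0.80 and 1.03 under all alternatives tried. Ciita, the class II counterpart of Nlrc5, lay below the expression minimum of 1 FPKM as a mean over all libraries. It had 1.83, 2.05 and 1.64 FPKM in MHCII-hi, against 0.08, 0.10 and 0.07 FPKM in MHCII-lo.

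Other regulators of class I genes differed in both directions. Of 17 listed genes 16 were tested, and 9 were higher, 3 lower and 4 not called, with a median change of 0.19. Over all tested genes 25.5% were higher and 33.1% lower. With immunoglobulin-free scaling 13 were higher and 1 was lower, beside 40.6% of all genes higher and 17.5% lower. The 13 include Ciita, which met the minimum only through MHCII-hi. Irf1, a factor that interferons induce and that binds response elements of class I promoters, averaged 24.3 ± 0.618 FPKM in MHCII-hi and 10.9 ± 0.686 FPKM in MHCII-lo, a log2 change of 1.09 (limma adjusted p = 3.99e-06). Irf8, a factor of myeloid and B-lineage cells, had 27.93, 27.47 and 28.54 FPKM in MHCII-hi, against 19.49, 18.83 and 19.16 FPKM in MHCII-lo. Rfx5, the DNA-binding partner of NLRC5, averaged 5.30 ± 0.347 FPKM in MHCII-hi and 3.69 ± 0.121 FPKM in MHCII-lo. Its complex partner Rfxank was higher by 0.26, while Rfxap, with a change of 0.01, was not called. The NF-kB subunits Rela and Nfkb1 were higher by 0.24 and 0.19. The CCAAT-binding subunit Nfyb was lower (log2 change -0.48), Nfya was higher (0.19), and Nfyc was not called. The interferon receptor chains divided by family: Ifnar1 and Ifnar2 of the type I receptor were higher by 0.22 and 0.28, and Ifngr1 and Ifngr2 of the interferon gamma receptor had changes of -0.16 and -0.30, neither of which was called with immunoglobulin-free scaling.

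**Figure D5:**
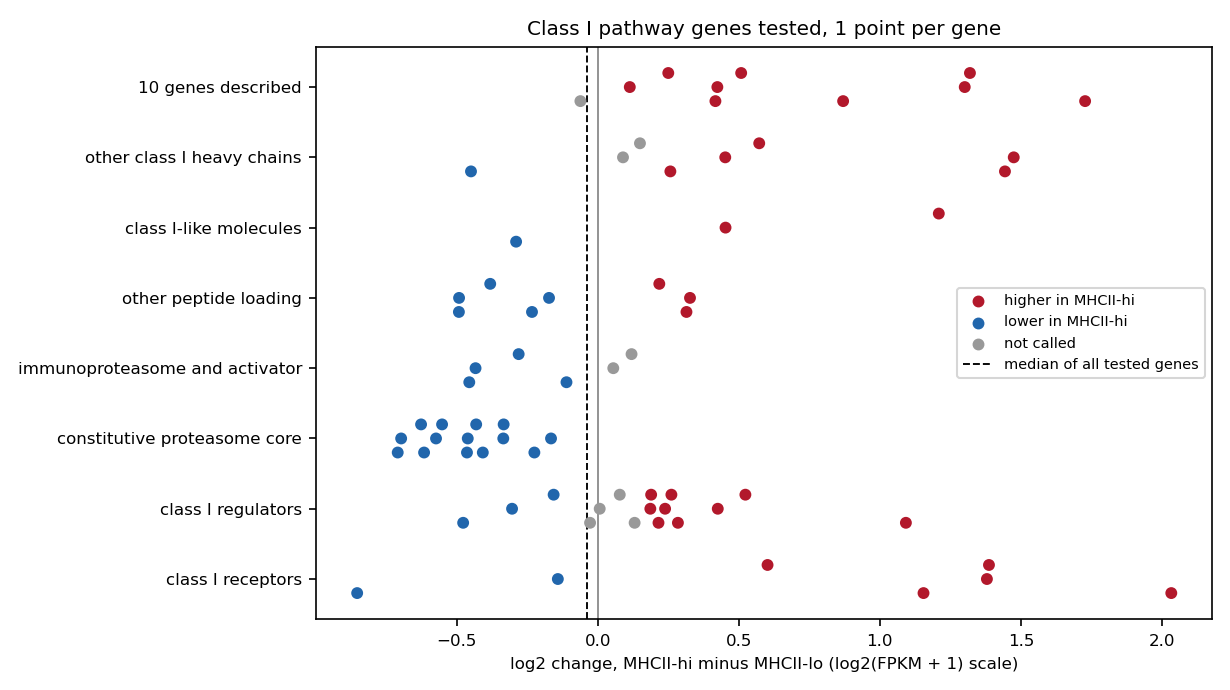
Log2 change (MHCII-hi minus MHCII-lo, log2(FPKM + 1) scale, values as deposited) of every tested gene in each class I list, 1 point per gene, coloured by call, with the median of all tested genes (-0.04) as a dashed line. All 14 genes of the constitutive proteasome core list lie left of 0. Heavy chains and receptors lie mostly to the right, with H2-Q10, Pirb and Lilrb4a to the left.

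The list of class I receptors and related receptors had a median change of 1.15, the highest among the class I lists. Of 9 listed, 7 were tested, and 5 were higher and 2 lower, beside 25.5% of all tested genes higher and 33.1% lower. Klrd1, or CD94, the shared chain of the receptors for Qa-1, averaged 9.52 ± 1.35 FPKM in MHCII-hi and 1.62 ± 0.675 FPKM in MHCII-lo (log2 change 2.03, limma adjusted p = 0.000179). Its inhibitory partner Klrc1, or NKG2A, averaged 6.87 ± 0.681 FPKM in MHCII-hi and 2.02 ± 0.267 FPKM in MHCII-lo. The activating receptor Klrk1 and the T cell coreceptor chain Cd8a were higher by 1.39 and 1.15; Klrk1 averaged 0.867 FPKM in MHCII-lo, so it met the minimum only through MHCII-hi. Pirb, an inhibitory class I receptor of myeloid and B cells, averaged 39.5 ± 0.603 FPKM in MHCII-hi and 72.1 ± 1.84 FPKM in MHCII-lo (log2 change -0.85, limma adjusted p = 8.35e-07). Lilrb4a, from the same inhibitory receptor group, had a change of -0.14 and was not called with immunoglobulin-free scaling. It is counted here as a related receptor, not as one known to read class I molecules. T and NK cell markers and neutrophil markers moved beside these genes, as given above, and their part in them was not tested.

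Among themselves the 10 genes kept a steady order at the top and a shifted one below it. B2m, H2-D1 and H2-K1 were the top of the order in every library, with B2m highest and H2-K1 lowest of the trio. In MHCII-hi they were followed by H2-Q6, H2-Q4, H2-T23, Psmb8, H2-Q7, Tap1 and Nlrc5, and no neighbours in this order overlapped. In MHCII-lo they were followed by Psmb8, H2-T23, H2-Q4, H2-Q6, Tap1, H2-Q7 and Nlrc5, where Psmb8 overlapped with H2-T23, and H2-Q4 with H2-Q6. Of the 10 genes 8 lie on chromosome 17 in the H2 complex, with Tap1 and Psmb8 only 495 bases apart, and these neighbours had log2 changes of 0.42 and -0.06.

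Genes outside the lists whose pattern over the 6 libraries lay closest to that of a class I gene were found by the Euclidean distance between centred log2 values, among 9946 genes. Closest to B2m were Thrap3 (distance 0.0245), Sla and mt-Nd4. Closest to H2-K1 were Muc13 (distance 0.0241), Ier2 and Cyth1. Closest to H2-Q7 were Per1 (distance 0.0801), Rel and Zc3h12a; Rel averaged 21.1 ± 0.663 FPKM in MHCII-hi and 7.99 ± 0.0404 FPKM in MHCII-lo. These distances rest on 6 libraries in 2 groups, and no function is implied by them.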

How the data were processed

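RNA from the sorted cells was made into stranded mRNA libraries, as the protocols in the labels state. Read cleaning, alignment and assembly used fastp, HISAT2 and StringTie with the build GRCm38 (mm10), per the submitters' processing notes; their versions, their settings and the gene models were not given in the sources used here. Values that the authors deposited, 1 table per library, carry no unit in the headers. They were taken to be FPKM computed by the authors, because they hold decimals and step with gene length. Of 30803 rows, 70 that shared a symbol with a higher row were dropped, none of them among the 10 genes. A gene was tested if its mean reached 1 FPKM, 12110 genes in all. The test was two-sided limma (3.58.1, R 4.3.3) with a variance trend on log2 values after adding 1 FPKM, and p-values were adjusted by Benjamini-Hochberg across every tested gene. Adding 1 shrinks the change of low genes. The procedure was tested on simulated data. Depth is not stated and was estimated from steps in single-exon genes of 200 to 2000 bases. FPKM is relative to the library total, so abundant transcripts lower all others.

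The genes and lists were chosen with earlier results of these data known. Every one of the 10 genes is named, with up to 6 genes of smallest p per pathway list, certain fixed pathway genes, and the 3 genes nearest in pattern to B2m, H2-K1 and H2-Q7. Other genes named to complete the count of a list were chosen after their values were seen. Coordinates come from GENCODE M21 on GRCm38, which held 98.1% of tested symbols. Alternatives were a pseudocount of 0.1, no minimum or 5 FPKM, immunoglobulin-free, quantile and upper-quartile scaling, robust moderation, a replicate block, and leaving out each library. Tests for read counts were not used, because the tables hold no counts. Some genes of these lists are counted but not reported by name here.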

Additional observations from a re-analysis of the deposited data

How the results depend on the processing

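The 9 genes called higher were called higher with a pseudocount of 0.1, no minimum, a minimum of 5 FPKM, immunoglobulin-free and upper-quartile scaling, robust moderation and a replicate block, and with each library left out (9 to 9 higher, 0 to 0 lower). Quantile normalization was the exception: it gave 2 lower genes, B2m at -0.33 and H2-D1 at -0.36, and 7 higher; the cause was not tested. Psmb8 changed sign, to 0.11, with immunoglobulin-free scaling and was not called under any alternative. Over all genes, the counts were 1792 higher with a minimum of 5 FPKM, where fewer genes were tested, and 4934 higher and 2127 lower with immunoglobulin-free scaling, against 3084 and 4009 with values as deposited. Leaving out single libraries gave 2716 to 2922 higher and 3583 to 3693 lower genes, a Psmb8 to Psmb5 log2 difference of 0.38 to 0.41, and a class II difference of 4.38 to 4.42. Libraries with the same replicate number did not deviate together (correlations of -0.09, -0.0036 and -0.03), so the numbers were not taken as pairs; a replicate block gave 2856 higher and 3782 lower genes over all, and 9 higher and 0 lower among the 10. Depth limits the low genes most, and sequence shared with other genes limits the heavy chains, H2-Q7 (40.2% of 50-base windows), H2-Q6 (32.0%), H2-T23 (28.8%) and H2-Q4 (24.3%) more than H2-D1 (14.3%) and H2-K1 (8.79%).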
